A study of Mus musculus with 15 samples.

Results

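The cytosolic ribosomal proteins are the building blocks of the ribosome that translates nuclear mRNAs. They were taken here as 84 genes of 20428 in the files, 32 of the small (40S) and 52 of the large (60S) subunit, chosen by mouse gene symbol (the Rps and Rpl series, Rplp0, Rplp1, Rplp2 and Rpsa) with the most read transcript of each gene. The symbols also bring in 7 paralogs, each named after a parent gene (Rps27l, Rpl7l1, Rpl22l1, Rpl3l, Rpl10l, Rpl32l and Rpl39l). The libraries are ribosome profiling libraries, in which RNA not covered by a ribosome is digested and the protected fragments are sequenced, from whole liver of wild-type male C57BL/6N mice of 8 to 10 weeks. The mice had lived in 12 h of light (400 lx) and 12 h of dark and were killed in constant darkness at CT0, CT4, CT8, CT12, CT16, CT20 or CT24, where CT is circadian time in h, with CT12 the start of the subjective night. There were 2 mice and 2 libraries at each of the 7 times, 14 in all, and no group carried a mutation or a treatment. All genes together had 30350173 to 70536921 CDS reads per library.

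A ribosome is assembled from ribosomal RNA and one copy each of most ribosomal proteins, so the 2 subunits need their proteins in matched amounts. The mRNAs of these proteins are known for a 5′ terminal oligopyrimidine (TOP) start, a C at the cap followed by an unbroken run of C and T. Through this start their translation responds to the kinase mTORC1, which is active when nutrients and insulin are plentiful. In liver the synthesis of ribosomes is known to follow feeding and the clock.

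The annotated first bases of the transcripts are shown because the TOP start is the feature these mRNAs are known for. A C followed by at least 4 C or T at the first base, read on the transcript strand only, began 16 of the 84 transcripts (19.05%), against 2.35% of the 11423 tested genes with an annotated start. Within the first 30 bases the same letters were found in 51 of the 84 transcripts, and in 33.2% of those genes. An annotated start can lie some bases from the cap, and no match says only that these letters were not in the window. Of the longer runs, 8 from tested transcripts whose lengths fit the annotation are given, with the run in capitals and the positions in GRCm38.p6 (RefSeq annotation), followed by 2 ribosomal protein transcripts whose annotated start carries no such run, both among the 10 members with the smallest cosine p below. Rps15a, also among those 10, begins with a run of 8 and is not printed.
Rpl15: CTTCCTTTCCTCTggcggca (chr14:18270967-18270986, minus strand)
Rpl30: CTTCCTTTCTCgctccccgg (chr15:34443206-34443225, minus strand)
Rpl35: CTCTTTCTCTCgaaccaggc (chr2:39005112-39005131, minus strand)
Rpl32: CTTCTTCCTCggcgctgcct (chr6:115808724-115808743, minus strand)
Rps6: CTCTTTTTCgtgacgcctcc (chr4:86857348-86857367, minus strand)
Rpl28: CTCTTTCCgtctccggccgc (chr7:4792965-4792984, plus strand)
Rpl35a: CTCTTTCCgccatcttggcg (chr16:33056482-33056501, plus strand)
Rps27: CCTTTCCggcggtgacgacc (chr3:90213629-90213648, minus strand)
Rpl6: attgcttatagaccggaagc (chr5:121204501-121204520, plus strand)
Rps29: gttgtcgcacggcgtacgcg (chr12:69159167-69159186, minus strand)

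Library facts that bear on the results are few. The markers of hepatocytes, the main cell of the liver (Alb, Apoa1 and 7 others), summed to 46807 to 63416 CPM per library, while 6 lymphocyte markers found in the files summed to 2.79 to 7.11. CT20 replicate 2 stood apart, with 3128 CPM for 5 markers of pancreatic acinar cells against 3.04 to 62.5 in the other 13 libraries. In CT16 replicate 2 every nonzero count was an even number (100% against 45.7% to 50.02% elsewhere). The pair called CT24 in the names carries the time CT00 in another label field, and the name was used. The major urinary protein genes took 33.9% to 57.2% of CDS reads, so CDS counts were scaled by TMM, an edgeR method that lets no few genes set the scale. Unless said otherwise, a level below is the CDS count in that scale, relative to library size (CPM).

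The ribosomal proteins as a set had their fewest CDS reads at CT4 and CT8, in the subjective day, and, in the TMM scale, their most at CT12 and CT16, in the early subjective night. Their summed level was 2343 and 2191 CPM at CT0, 1237 and 1079 at CT4, 1152 and 1246 at CT8, 2970 and 2225 at CT12, 2472 and 3013 at CT16, 1671 and 2040 at CT20, and 1790 and 2069 at CT24. All 4 libraries of CT4 and CT8 were below each of the other 10. The mean at CT16 (2742 ± 383, SD, n = 2) was 2.37 times that at CT4 (1158 ± 111) and 2.29 times that at CT8 (1199 ± 66.5). As a share of all CDS reads the set took 0.0923% to 0.349%, and the means ran from 0.1003% ± 0.0064 at CT8 to 0.312% ± 0.051 at CT0 and 0.309% ± 0.027 at CT16. On this scale CT12 was not among the highest times, with 0.213% ± 0.070, about that of CT24 (0.212% ± 0.007). With the major urinary protein genes left out of the total, the share was 0.452% ± 0.098 at CT12, 0.496% ± 0.044 at CT0 and 0.547% ± 0.051 at CT16, so the high level at CT12 depends on the scale. At CT16 the summed markers of Kupffer, endothelial, stellate, bile duct, erythroid and lymphoid cells had their lowest means, from 3.65 CPM for lymphocytes to 134 for endothelial cells, and their part in the course was not tested. Fewer cells and less RNA per cell cannot be told apart in whole liver, nor can the amount of an mRNA and the number of ribosomes on it, since total RNA was not analysed here.

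In the means of the TMM scale, both subunits were lowest at CT4 and highest at CT16. For 40S and 60S, CT8 (466 ± 14.9 and 733 ± 51.6 CPM) lay within the SD of CT4. CT12 (1027 ± 199 and 1571 ± 328) lay within that of CT16. The 32 genes of the 40S subunit summed to 461 ± 28.4 CPM at CT4 and 1105 ± 146 at CT16, and the 52 genes of the 60S subunit to 697 ± 83.0 and 1638 ± 237. The ratio of 40S to 60S reads stayed between 0.618 and 0.692 in the 14 libraries, with means from 0.636 ± 0.024 at CT8 to 0.675 ± 0.008 at CT16.

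**Figure D1:**
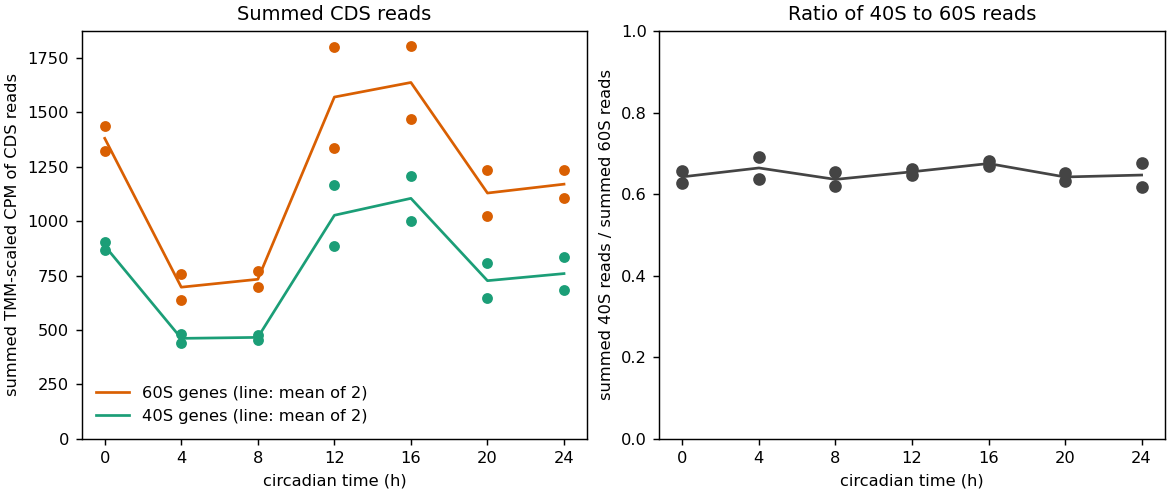
Left, summed CDS reads (TMM-scaled CPM) of the 40S and 60S ribosomal protein genes against circadian time in h, with a point for each library and a line through the mean of the 2 libraries. Right, the ratio of the 2 sums, which lies between 0.618 and 0.692 while the 40S mean goes from 461 at CT4 to 1105 at CT16.

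Each gene was then tested for a 24 h rhythm with a cosine fit in edgeR (quasi-likelihood F test, adjusted over the 11551 genes averaging at least 10 counts in the CDS). Of the 84 members 80 were tested, and 44 of them passed at an adjusted p of 0.05, where 10.4% of all genes tested passed. The fitted times of the peak (phases) of the 44 lay between 15.9 and 19.5 h, with a median of 17.2 h and standard errors of 0.60 to 1.19 h. Of all 1200 genes called, 24.8% had a phase from 15 to 20 h. This window was drawn around the phases of the 44 members, so their lying within it is no result. The median peak-to-trough difference was 1.23 on the log2 scale over the 80 members (2.34-fold) and 0.45 over all genes tested (1.36-fold). The count rests on single libraries: it was 22 and 19 without CT4 replicate 1 or 2, 24 and 27 without CT8 replicate 1 or 2, 17 without CT16 replicate 2, the highest library, 62 without CT20 replicate 1 and 49 without CT20 replicate 2. Scaled by the total count in place of TMM, 33 of the 80 passed. The share of all genes that passed in these alternatives is not given here, so they show only how far the count moves.

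**Figure D2:**
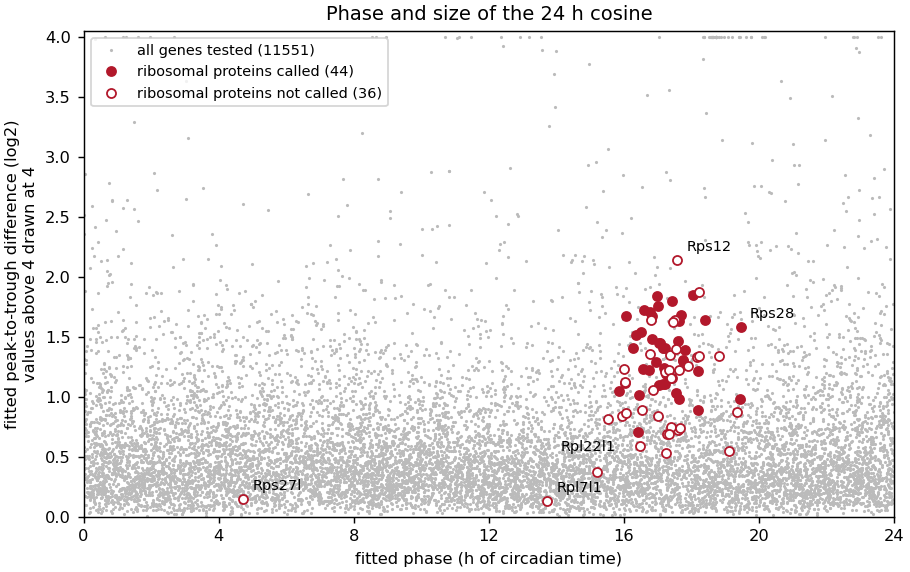
Fitted phase (h of circadian time) against the fitted peak-to-trough difference (log2) for all 11551 genes tested in gray and the 80 tested ribosomal protein genes in red, filled where the cosine fit called them. Apart from Rps27l and Rpl7l1, the ribosomal proteins lie between 15 and 20 h.

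A test that asks only for any difference between the 7 times (the time factor fit) called 64 of the 80, where 6.16% of all genes passed. Both tests called 40 members, the time factor alone 24 and the cosine alone 4 (Rps6, Rps26, Rpl5 and Rpl35). The 12 called by neither were Rps16, Rps25, Rps27, Rpl18, Rpl19, Rpl21, Rpl27, Rpl34, Rpl39 and the paralogs Rps27l, Rpl7l1 and Rpl22l1. The lowest mean was at CT4 or CT8 in 78 of the 80 members and in 23.6% of all genes tested, and the highest at CT12 or CT16 in 68 members and in 32.6% of all genes. Of the 15 tested members whose transcript begins with the pyrimidine run above, the cosine fit called 8 and the time factor 12, and of the other 65 they called 36 and 52, with medians of 1.23 and 1.22 log2. By subunit, the cosine fit called 18 of 32 genes of the 40S and 26 of 48 of the 60S subunit, and the time factor 26 and 38. Without CT20 replicate 2 the time factor called 68.

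**Figure D3:**
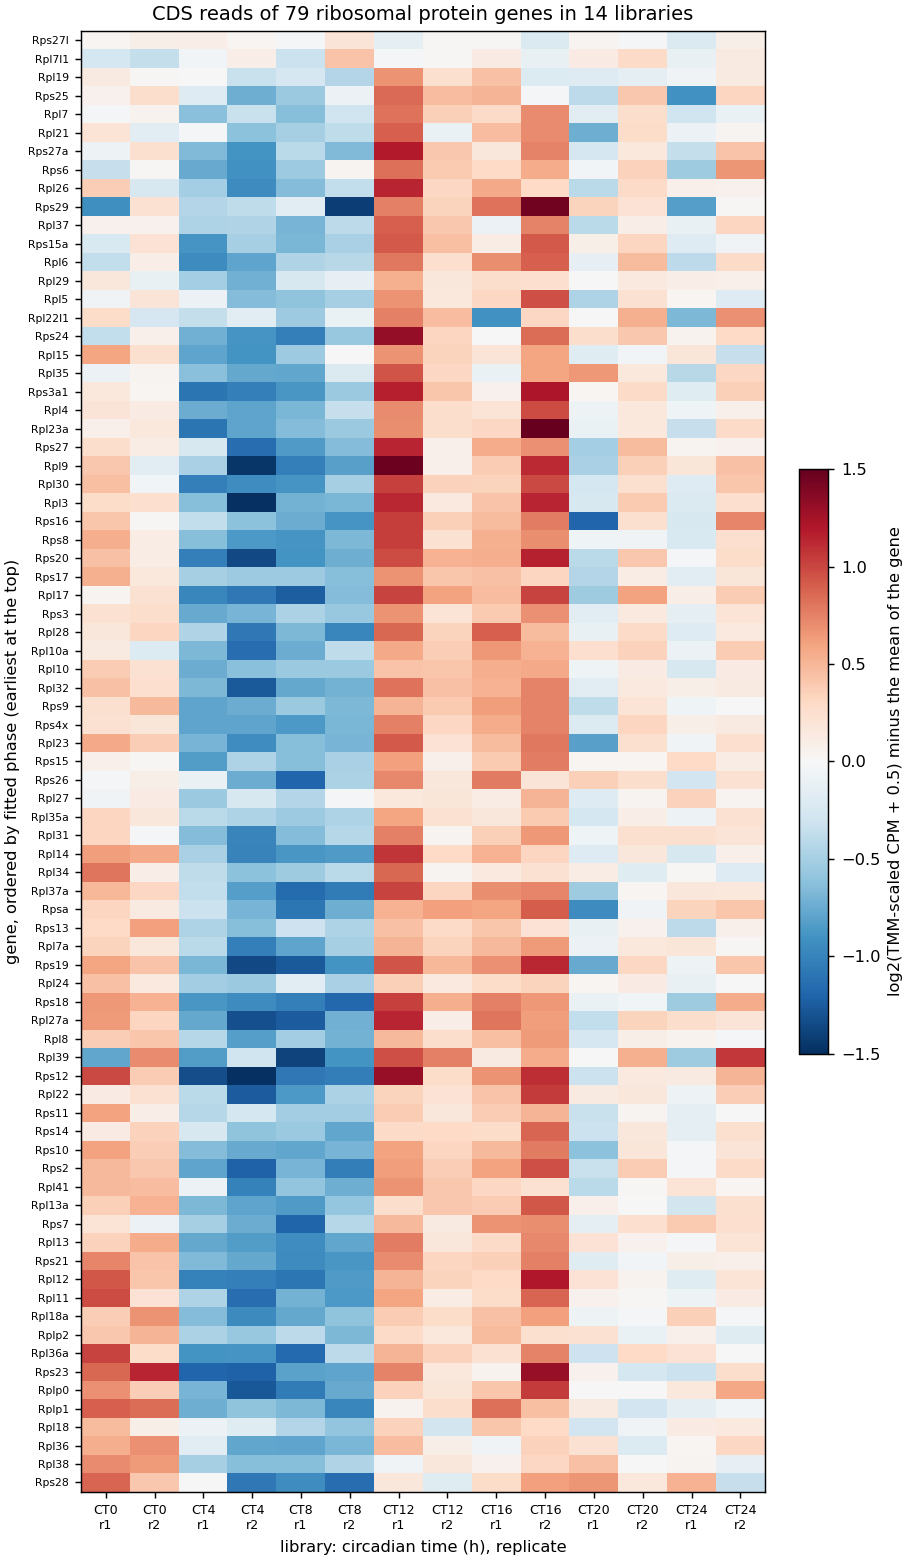
Each row is one of 79 tested ribosomal protein genes, ordered by fitted phase, and each column one of the 14 libraries. Color gives log2(CPM + 0.5) minus the gene's mean; the CT4 and CT8 columns are blue in nearly every row, and the 2 rows at the top (Rps27l and Rpl7l1) show little change.

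Among the 40S proteins, Rps29, Rps15a and Rps4x were among the 10 smallest cosine p. Rps29 ranged from 7.42 CPM in CT8 replicate 2 to 57.0 in CT16 replicate 2, and its replicates differed widely (10.6 and 24.3 at CT0, 18.4 and 7.42 at CT8, adjusted p = 0.0050). Rps4x, by contrast, was 10.9 in both libraries of CT4 and 28.7 and 32.7 at CT16 (1.41 ± 0.31 log2, adjusted p = 0.0069). Rps12 had the widest fitted swing of all members, 2.14 ± 0.64 log2, from 3.95 and 2.80 CPM at CT4 to 17.4 and 23.7 at CT16. It passed the time factor test (adjusted p = 0.00036) and missed the cosine threshold (0.069). Rps28, with a phase of 19.5 ± 0.83 h, was the latest of the called members and was highest at CT0 (12.6 and 9.06 CPM).

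Rps6, the substrate of S6 kinase whose phosphorylation is the usual readout of mTORC1, had 12.9 and 16.7 CPM at CT0, 9.59 and 8.56 at CT4, 11.2 and 17.1 at CT8, 29.7 and 21.8 at CT12, 20.5 and 24.5 at CT16, 16.01 and 21.2 at CT20, and 11.3 and 26.5 at CT24. The 2 libraries of CT24 lay farther apart than those of any other time. Its cosine adjusted p of 0.049 was the largest among the 44 called, and Rpl27a, at 0.053, was the nearest member on the other side of the threshold. Rps3, which lines the mRNA entry, was 32.2 and 33.6 at CT4 against 72.1 and 88.7 at CT16 (adjusted p = 0.017). Rpsa, also known as the laminin receptor, passed the time factor test only (adjusted p = 0.0021 against 0.17 in the cosine fit), with 4.75 and 9.22 CPM in the CT20 libraries.

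Among the 60S proteins, Rpl6 had the smallest cosine p of the set (adjusted p = 0.00081). Its level was 13.5 and 18.8 CPM at CT0, 8.88 and 9.92 at CT4, 12.7 and 13.0 at CT8, 30.8 and 21.1 at CT12, 28.9 and 33.1 at CT16, 16.04 and 24.6 at CT20, and 13.3 and 21.5 at CT24. CT4 was below every other library and CT8 below all libraries of CT12 to CT24, with a peak-to-trough difference of 1.52 ± 0.26 and a phase of 16.4 ± 0.62 h. Rpl10a, the homolog of bacterial L1 at the stalk beside the tRNA exit, had 4.84 CPM in CT4 replicate 2 as its lowest and 18.1 in CT16 replicate 1 as its highest value (1.45 ± 0.26 log2, adjusted p = 0.0017). Rpl4, one of the proteins that line the exit tunnel, had the most CDS reads of the set, from 57.5 CPM in CT4 replicate 2 to 197 in CT16 replicate 2 (adjusted p = 0.0082, and 0.057 without CT16 replicate 2). Rpl23a, at the mouth of the exit tunnel, had 31.4 and 76.3 CPM in the CT16 libraries, the widest gap between its replicates (adjusted p = 0.0041, and 0.0012 to 0.045 with single libraries left out).

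Rpl5 and Rpl11, which with 5S rRNA form the particle that can bind Mdm2 and stabilize p53, differed in their call. Rpl5 was 7.65 and 5.01 CPM at CT4 and 10.2 and 16.4 at CT16 (cosine adjusted p = 0.046, time factor 0.070). Rpl11 was 14.9 and 9.10 at CT4 and 24.97 and 38.2 at CT16, and was highest at CT0 with 41.1 and 24.1 (cosine adjusted p = 0.064, time factor 0.0084). A test of the difference between them was not made. Rpl13a, which has a role outside the ribosome in silencing inflammatory mRNAs, was 20.9 and 19.3 at CT4 and 44.1 and 64.5 at CT16 (adjusted p = 0.016).

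The proteins of the P stalk, where elongation factors bind, were lowest at CT4 or CT8 like most members. Rplp0, the base of the stalk, was 9.36 and 6.15 CPM at CT4 and 20.9 and 32.8 at CT16 (phase 18.4 ± 0.90 h, adjusted p = 0.020). Rplp1 was 36.2 and 34.8 at CT0, 11.4 and 12.5 at CT4, 11.9 and 9.49 at CT8, 20.0 and 23.2 at CT12, 34.5 and 26.6 at CT16, 21.3 and 15.8 at CT20, and 17.4 and 18.7 at CT24. Its CT24 libraries lay below those of CT0, a difference that did not pass the threshold (-0.98 log2, adjusted p = 0.81), and the gene passed the time factor test (adjusted p = 0.00017) but not the cosine (0.064). Rplp2 was highest at CT0 too, with 32.8 and 35.1 CPM (cosine adjusted p = 0.047).

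The least rhythmic members, by the 5 largest cosine p, were Rpl41, Rpl19 and the 3 paralogs below. Rpl41, the smallest ribosomal protein, was 31.8 and 31.4 CPM at CT0, 21.2 and 10.99 at CT4, 14.9 and 13.5 at CT8, and 36.5 and 30.2 at CT12 (cosine adjusted p = 0.37, time factor 0.017). Rpl19 was 26.9 ± 2.62 CPM at CT8, its lowest time, and 47.6 ± 10.1 at CT12, its highest (adjusted p = 0.46, time factor 0.21). A p that misses the threshold does not show that these levels were constant.

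Ubiquitin is encoded partly by fusions with ribosomal proteins. Rps27a, one of these, was 6.51 and 5.48 CPM at CT4, 24.9 and 14.2 at CT12 and 12.1 and 18.1 at CT16 (cosine adjusted p = 0.054, time factor 0.017). Fau, the ubiquitin-like fusion that yields eS30 and whose name lies outside the symbols used, had 11.7 at CT4 and 26.2 at CT12 (adjusted p = 0.46, time factor 0.029).

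Of the 7 paralogs, 4 had next to no reads in liver. Rpl10l, a testis paralog of Rpl10, had 0 CDS reads in the 14 libraries, which allows up to 0.0046 CPM over all of them (3 reads, counting error only), where Rpl10 had 30314 reads. Rpl3l, a striated muscle paralog of Rpl3, had 1 read against 12272, Rpl32l 2 against 18563, and Rpl39l 17, of them 16 in a single library, against 5416 for Rpl39. These 4 were not tested.

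Rps27l, a target of p53 and a paralog of Rps27, had more reads than its parent, 57.4 against 6.85 CPM on average. In Rps27l 45.8% of the 28-base windows of the coding exons were found at a single place in the genome, and in Rps27 0%. The handling of reads with several places therefore bears on this difference in level. The methods name uniquely placed reads for the density profiles, but the handling for the counts used here is not given. Its part was not tested. Rps27l was 58.5 and 60.7 CPM at CT0, 61.2 and 58.7 at CT4, 56.6 and 65.4 at CT8, 52.2 and 58.0 at CT12, 58.1 and 49.4 at CT16, 59.1 and 56.2 at CT20, and 49.2 and 60.7 at CT24. The 14 values lay between 49.2 and 65.4, with a peak-to-trough difference of 0.15 ± 0.09 log2 (adjusted p = 0.73). Rps27 was 7.60 and 6.80 at CT0, 5.19 and 2.55 at CT4, 3.26 and 3.78 at CT8, 14.3 and 6.60 at CT12, 9.41 and 10.3 at CT16, 4.22 and 8.87 at CT20, and 6.42 and 6.56 at CT24. Both coding sequences are 255 bases long and share 76.1% of their bases. They are shown where they differ most over 28 bases (bases 9 to 36 of the CDS, 13 of 28 different, in capitals) and where they differ least (bases 199 to 226, 3 different), because the reads of the pair are told apart by such bases.
Rps27: CgcAaAGgatctCCtTcaTccCtcTCCA
Rps27l: GgcTaGAgatctGTtAcaCccTtcCTTG
Rps27: acaggTggaaaagcAaggctGacagaag
Rps27l: acaggAggaaaagcCaggctCacagaag

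Rpl7l1 and Rpl22l1, the other paralogs with reads, also showed no called rhythm. Rpl7l1 lay between 7.66 and 13.6 CPM in the 14 libraries (0.13 ± 0.19 log2, adjusted p = 0.87), where Rpl7 was 14.4 to 18.3 in the 4 libraries of CT4 and CT8 and 27.8 to 40.4 in those of CT12 and CT16 (adjusted p = 0.0072). Rpl22l1 lay between 0.76 and 3.52 CPM (0.59 ± 0.56 log2, adjusted p = 0.72), where Rpl22 was 6.90 and 3.65 at CT4 and 12.7 and 19.8 at CT16 (adjusted p = 0.0056). The difference itself was tested on the log2 ratio of paralog to parent reads, by a cosine over time with 100000 shuffles of the time labels over 14 libraries. The ratio had a peak-to-trough difference of 1.49 for Rps27l over Rps27 (permutation p = 0.037), 0.91 for Rpl7l1 over Rpl7 (p = 0.060) and 1.09 for Rpl22l1 over Rpl22 (p = 0.19). Adjusted over the 3 pairs these permutation p-values were 0.090, 0.090 and 0.19, so no pair was shown to differ in its course.

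**Figure D4:**
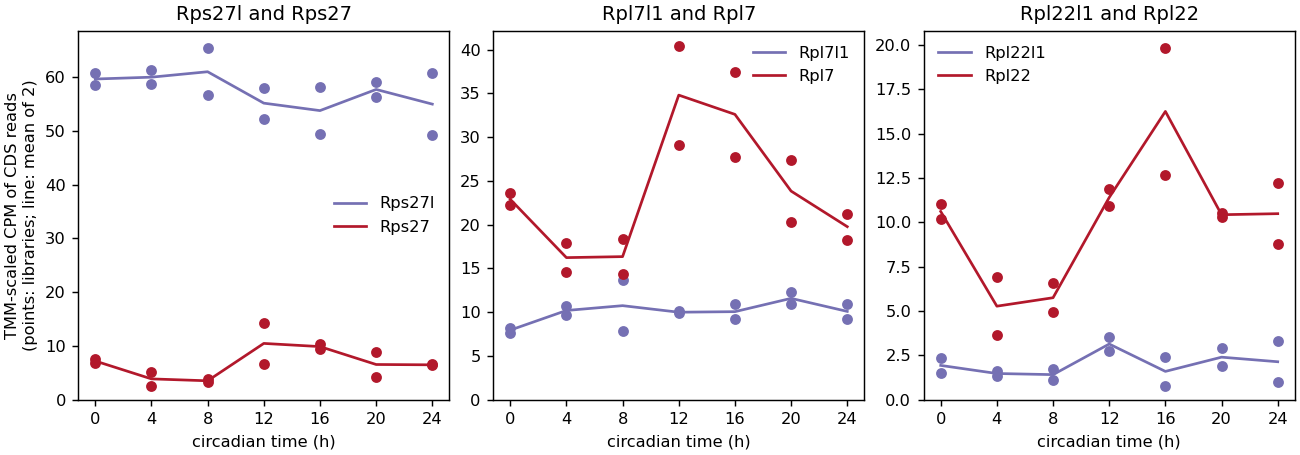
CDS reads (TMM-scaled CPM) against circadian time in h for 3 paralogs in purple and their parent genes in red, with a point for each library and a line through the mean of 2. Rps27l lies at 49.2 to 65.4 CPM throughout, above Rps27, while Rpl7 and Rpl22 are highest at CT12 and CT16 and their paralogs lie below them in every library.

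Per length, the ribosomal protein mRNAs were among the more densely read of the liver. The median over the 80 tested members was 42.5 CPM per kb of CDS, against 3.26 over all genes tested, and the median member stood at the 90.0 percentile. The densest were Rpl41 (295 ± 94.5 CPM per kb, mean ± SD over 14 libraries), Rps27l (222 ± 17.5), Rpl35a (160 ± 39.8), Rps21 (158 ± 61.7), Rps29 (135 ± 74.4), Rpl8 (97.3 ± 30.0) and Rpl27a (93.9 ± 44.8). The CDS of Rpl41 is 81 bases long in the files, so that its density rests on few positions. The least dense were Rpl22l1 (5.40 ± 2.35), Rpl5 (9.55 ± 3.55), Rps23 (9.55 ± 5.99), Rpsa (11.8 ± 4.94), Rpl7l1 (13.5 ± 2.22), Rpl3 (15.4 ± 7.72), Rplp0 (17.9 ± 7.83) and Rpl10a (18.3 ± 6.40). Apart from Rps27l and Rpl35a, the ranges of mean ± SD of neighbors in each order overlapped, where the SD holds the change over the day as well. Without the paralogs, 77 genes whose proteins are needed in near equal numbers spanned a 30.9-fold range of density, with an SD of 0.93 on the log2 scale (2.67 over all genes tested).

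Ribosomal protein genes have many processed pseudogenes, copies of the mRNA inserted in the genome, and a short read can fit several of them. Every 28-base window inside a coding exon was therefore looked up in the genome. The median member had 2.59% of its windows at a single place, and 33 of the 84 had none, where the median of all genes tested was 100% and 1.06% had none. Of the other members, 5 with reads enough to be tested had at least 50% at a single place, among them Rpl8, Rps3, Rpl4 and Rpl22. As examples, the window taken from the middle of the longest coding exon of Rpl8 was found at 1 place in GRCm38.p6, that of Rpl41 at 8, that of Rpl21 at 28 and that of Rps2 at 43.
Rpl8: ctggcccgagcctccgggaactacgcca (chr15:76904913-76904940)
Rpl41: cgcaagagaagaaagatgaggcagaggt (chr10:128548395-128548422)
Rpl21: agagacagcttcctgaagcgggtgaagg (chr5:146835625-146835652)
Rps2: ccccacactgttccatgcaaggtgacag (chr17:24721122-24721149)

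The medians of the course over the day are given for genes with and without unique windows. The 5 genes with at least 50% were all called by both fits, with a median peak-to-trough difference of 1.22 log2 and a median phase of 17.5 h. The 33 with none had medians of 1.23 log2 and 17.2 h, with 14 called by the cosine and 25 by the time factor, and the 39 in between 1.24 log2 and 17.2 h, with 25 and 34 called. The median density was 83.3 CPM per kb in the 5 genes, 43.6 in the 39 and 40.5 in the 33. Across the 77 genes the rank correlation of density with the share of unique windows was 0.32, and 0.15 with the mean of 1 over the number of places in its stead (counting windows across exon junctions as 0), given as a description over genes that share libraries and depth. The methods name uniquely placed reads for the density profiles along transcripts, but how reads with several places entered the counts used here is not given in the sources used here, and its part in the levels was not tested.

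**Figure D5:**
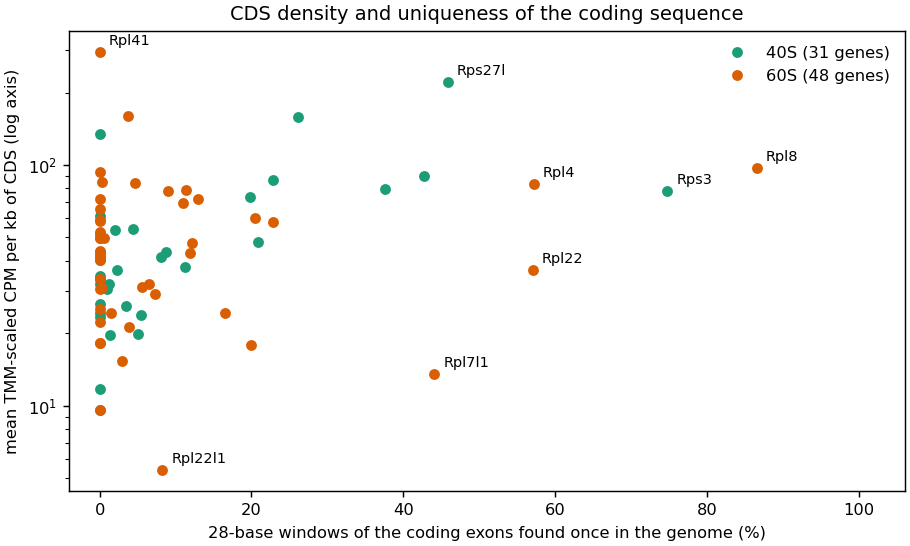
Share of 28-base windows of the coding exons found at 1 place in the genome (percent) against the mean CDS density (CPM per kb, log axis) of 79 tested ribosomal protein genes, colored by subunit. Most genes lie near 0%, at densities from 5.40 to 295, and Rpl8, Rps3, Rpl4 and Rpl22 lie above 50%.

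The 5′UTRs were short, as ribosomal protein mRNAs are known for. The median length was 68 bases over the 84 members, against 145 over all genes tested, and 63 of the 84 were under 100 bases (34.8% of all genes tested). The longest in the files were those of Rps27a (312), Rpl31 (298), Rpl21 (295), Rpl34 (227) and Rpl27 (215). The shortest were listed at 0 for Rps4x and at 18 for Rpl11 and Rps15a and 21 for Rpl7a and Rps18. Of these, the annotation used here gives 91 bases for Rps4x, 40 for Rpl11 and 45 for Rps18, so 3 of the 5 shortest are longer there. All members together had 46203 reads in the 5′UTR, 3.51% of their 5′UTR and CDS reads, and 5 genes held 54.8% of these. Per base, the median tested member had 0.061 times as many 5′UTR as CDS reads, where the median gene had 0.36.

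A few members had many more. Rps27l had 10731 reads in the 5′UTR, 22.5% of its 5′UTR and CDS reads, with 136 reads in its lowest library (CT16 replicate 2) and 1839 in its highest (CT8 replicate 1). Rpl38 had 2553 (22.1%), with 102 to 399 per library. Per base the highest ratios, among genes with a mean of at least 10 5′UTR reads, were those of Rps10 (1.62), Rpsa (1.33), Rps27l (1.32), Rpl15 (1.19) and Rps25 (1.09). The 5′UTR of Rps27l is 57 bases long in the files and 89 in the annotation used here, so its value per base is less sure.

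Whether the share of ribosomes on the 5′UTR followed the time of day was asked in limma with the counts of the 5′UTR over those of the CDS, as a log2 ratio. None of the 39 members with enough reads was called, and 0.0% of the 5144 genes tested. At an unadjusted p of 0.05, 4 of the 39 members and 247 of the 5144 genes (4.80%) passed. The 4 were Rpl31, Rpl21, Rplp0 and Rpl5, and the smallest adjusted p of a member was 0.81. For Rpl31 the ratio rests on few reads, from 0 to 40 per library in the 5′UTR.

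Dusk (CT12) was compared with dawn (the mean of CT0 and CT24). In edgeR 3 members were called higher at CT12, where 3.45% of all genes were higher, and 0 lower, where 3.51% were lower. At an unadjusted p of 0.05, 24 of the 80 members were higher and 0 lower, where 10.2% of all genes were higher and 10.4% lower. The 3 called were Rpl7, with 40.4 and 29.1 CPM at CT12 against 22.2, 23.6, 18.3 and 21.2 at CT0 and CT24 (log2 difference 0.71, adjusted p = 0.031), Rps15a (0.81, adjusted p = 0.046) and Rps24 (0.90, adjusted p = 0.046). In Rpl7 and Rps15a both CT12 libraries were above all 4 of dawn, and in Rps24 as well, at 33.5 and 16.6 CPM against 10.0 to 16.3. The median difference was 0.33 over the 80 members and -0.002 over all genes. The members' median was 0.11 without CT12 replicate 1 and 0.57 without CT12 replicate 2. With the total count as the scale the medians were -0.25 and -0.60 and 0 members were called higher and 4 lower, so the direction turns with the scale. The share of all genes called lower on that scale is not given here, so the 4 cannot be set against a background. The distance from the median gene was 0.35 on that scale and 0.34 with TMM, but 0.11 without CT12 replicate 1 and 0.57 without CT12 replicate 2. The 3 calls fell to 0 without CT0 replicate 1, CT12 replicate 1 or CT24 replicate 1, to 1 without either CT4 library, and came to 11 without CT12 replicate 2 and 5 without CT24 replicate 2.

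CT24 and CT0 are the same time of day a cycle apart. In edgeR 0 of the 80 members were called higher or lower at CT24, and 0.0% of all genes in either direction. At an unadjusted p of 0.05, 12 members and 621 of all genes (5.38%) passed. The median difference of CT24 minus CT0 was -0.19 log2 over the members and 0.01 over all genes, and the lowest values were those of Rps23 (-1.09), Rplp1 (-0.98) and Rpl38 (-0.74).

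Other mRNAs known for a TOP start are those of elongation factors and some other translation proteins. Of 20 such genes in a list the cosine fit called 9 and the time factor 12, where 10.4% and 6.16% of all genes were called. The 9 had phases from 15 to 20 h, as did 24.8% of all genes called, with a median of 17.2 h. Eef1a1, which brings tRNAs to the ribosome, had a mean of 141 CPM at CT4 and 674 at CT16 (2.08 ± 0.47 log2, phase 16.96 ± 0.80 h, adjusted p = 0.0058). Eef2, which drives translocation, had 111 at CT4 and 563 at CT16 (2.07 ± 0.54, adjusted p = 0.016), and Rack1, a 40S-bound scaffold, 44.2 and 156 (1.63 ± 0.36, adjusted p = 0.0056). Not called were, among others, Naca (0.57 ± 0.25, adjusted p = 0.26) and Btf3 (0.38 ± 0.17, adjusted p = 0.32), the subunits of the nascent polypeptide complex.

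The proteins of the mitochondrial ribosome, which serve another genome, are given beside these. Of 78 such genes the cosine fit in edgeR called 0 (10.4% of all genes), JTK_CYCLE 1 (17.4% of all genes) and the time factor 1 (6.16% of all genes), namely Mrpl30 for the time factor. At an unadjusted cosine p of 0.05, 9 of the 78 and 24.02% of all genes passed. Their summed level lay between 945 and 1036 CPM in the means of the 7 times, with a median peak-to-trough difference of 0.23 log2, where the cytosolic set ran from 1158 to 2742 and had 1.23. The difference between the 2 sets was not tested.

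In the mTORC1 branch itself 4 of 24 genes were called by the cosine fit, where 10.4% of all genes were, and 2 by the time factor, where 6.16% were, so the counts of this list are near the background and the genes called are given singly. Mtor, the kinase, had a mean of 23.8 CPM at CT0 and 43.0 at CT12 (0.69 ± 0.17 log2, phase 10.4 ± 1.05 h, adjusted p = 0.021) and was higher at dusk (0.75, adjusted p = 0.0062). Larp1, which binds TOP starts and holds them back, had 30.01 at CT0 and 19.3 at CT12 (0.67 ± 0.09, phase 22.6 ± 0.58 h, adjusted p = 0.0038), and was lower at dusk (-0.63, adjusted p = 0.025). Ddit4, an inhibitor of mTORC1 also called Redd1, was at 1.36 CPM at CT8 and 5.89 at CT0 (2.20 ± 0.45, adjusted p = 0.0045) and lower at dusk (-1.90, adjusted p = 0.0104). Eif4g1, the scaffold of the cap-binding complex, was the other gene called, at 139 CPM at CT0 and 177 at CT12 (0.33 ± 0.03, adjusted p = 0.049). The S6 kinases Rps6kb1 and Rps6kb2 were not called (adjusted p = 0.47 and 0.48), nor was Eif4ebp1 (0.84).

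Of 17 genes for the transcription of rRNA and the import and assembly of ribosomal proteins, 4 were called by the cosine fit and 3 by the time factor, beside 10.4% and 6.16% of all genes. Rrn3, the factor that brings RNA polymerase I to its promoter, had 6.51 CPM at CT0 and 16.6 at CT12 (phase 12.8 ± 0.86 h, adjusted p = 0.0042). Ipo7 and Ipo5, importins that carry ribosomal proteins into the nucleus, had 26.4 and 15.6 at CT4 and 64.0 and 34.6 at CT16 (adjusted p = 0.0040 and 0.0083), and Ncl, the nucleolar protein nucleolin, 30.9 at CT0 and 57.00 at CT12 (adjusted p = 0.036). Myc had 1.01 to 4.22 CPM in the means of the 7 times and was not called (adjusted p = 0.64). The markers of other liver cells are given beside this: the 6 markers of Kupffer cells summed to 127 to 174 CPM in the means, the 6 of endothelial cells to 134 to 191 and the 5 of stellate cells to 127 to 188, each lowest at CT16, where the ribosomal proteins were highest. The means of the cholangiocyte (13.5), erythroid (56.2) and lymphocyte (3.65) markers were lowest at CT16 too. The cholangiocyte markers summed to 13.4 to 29.8 CPM per library and 3 erythroid markers to 49.2 to 99.0, and 1 of 5 stellate, 0 of 6 Kupffer, 0 of 6 endothelial and 1 of 5 cholangiocyte markers were called by the cosine fit. All 5 acinar markers were called by both fits, with a median phase of 18.6 h, within the 15 to 20 h of the ribosomal proteins, and their reads lie almost wholly in CT20 replicate 2 (3128 CPM). Without that library the cosine fit called 49 ribosomal proteins. Of the 9 hepatocyte markers 3 were called, of which Serpina1c (phase 18.3 h, adjusted p = 0.0027) and Tat (16.98 h, adjusted p = 0.027) had phases like those of the ribosomal proteins and Fgb (5.71 h, adjusted p = 0.038) did not.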

How the data were processed

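The authors deposited, for each library, raw counts of reads for 28167 RefSeq transcripts, split by 5′UTR, CDS and 3′UTR, with the length of each region in bases. By the methods, adapters were clipped, reads matching rRNA were removed, and the rest were aligned to mm10 and kept on an exact match (Bowtie2 2.1.0.0, SAMtools 0.1.19.0 and FastQC in the submitters' processing notes). The members and lists were chosen with earlier results of these data known. Transcripts were named through RefSeq (GRCm38.p6): 27840 were named and 327 were not. CDS counts of 1 transcript per gene, with a mean of at least 10, were scaled by TMM and tested with edgeR 4.0.16 in R 4.3.3 (quasi-likelihood F test, Benjamini-Hochberg adjustment over 11551 genes): a cosine and sine term of 24 h, the 7 times as a factor, CT12 minus the mean of CT0 and CT24, and CT24 minus CT0. The 5′UTR count over the CDS count, as a log2 ratio (pseudocount 0.5, mean of at least 10 in both) was tested with limma 3.58.1. Phases and peak-to-trough differences come from the edgeR fit, and their standard errors from a least-squares cosine fit to log2 CPM. Level and sequence summaries used Python 3.11.15 with numpy 2.4.6, scipy 1.17.1 and pandas 2.3.3, and figures matplotlib 3.10.9. Alternatives were other scalings, count minimums, transcripts and regions, DESeq2 1.42.0, JTK_CYCLE written anew, a replicate block and each library left out. The scripts were tested on simulated data.

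Genes were named by a rule: the 10 smallest and 5 largest cosine p, the 8 highest and 8 lowest densities, the 5 longest and 5 shortest 5′UTRs, the 5 highest 5′UTR ratios per base, all paralogs with their parents, and members with a known special role. Rps12, Rps28, Rps24, Rpl27a, Rps23, Rpl38 and the genes named from the other lists were chosen after their values were seen. The labels give 2 mice per time. Replicate numbers in the labels did not pair the samples: deviations of replicate 1 from the time means correlated by -0.09 to 0.19 between times. An SD rests on 2 values, and p-values measure the spread between these libraries. A second run of CT16 replicate 2 had no counts of its own, and whether its reads are among those used is not known. Of the genes this rule names, 2 are not reported here by name, and the plots by library and of CDS density leave 1 of them out.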

Additional observations from a re-analysis of the deposited data

Results flagged for a closer look

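The tests above used reads of the CDS and, for the ratio, of the 5′UTR. Reads of the 3′UTR, where a ribosome released at the stop codon leaves none, entered only the choice of transcript and the alternative with reads of the whole transcript. The members had 2562 such reads over the 14 libraries, 0.201% of their 3′UTR and CDS reads, and 41 of the 84 had more than the 3 that a count of 0 allows. Rpl22 held the most, 663 reads in a 3′UTR of 1795 bases, 9.42% of its 3′UTR and CDS reads. These reads are from 1 transcript of the gene, with a CDS of 270 bases in the annotation used here. Whether its 3′UTR is coding in another Rpl22 transcript was not tested. Next came Rps24 with 271 and Rps27l with 199. No control library without ribosomes was analysed here.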

How the results depend on the processing

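With 2 libraries per time, counts of calls are the least stable results. The cosine calls (44) ran from 17 to 62 with single libraries left out. JTK_CYCLE called 22 on CPM scaled by the total count, and 44 on TMM-scaled CPM, where it called 17.4% of all genes. Apart from this 17.4%, no share of all genes is given for the alternatives, so their counts show only how far the calls move. The time factor calls (64) ran from 52 to 69, and those of the ratio stayed at 0 under every alternative run. Dusk minus dawn called 3 higher, with 0 to 11 when single libraries were left out, 0 on the total count, 1 with upper quartile scaling, 18 with no count minimum and 1 with reads of the whole transcript. It called 0 lower, and 4 on the total count, where the median over the members reversed to -0.25. CT24 minus CT0 called 0 lower, and 1 with no count minimum. With the replicate number as a block the cosine fit called 39, the time factor 68, and no other count changed for the members. For the 15 genes with the smallest and largest cosine p, 387 of 389 alternative fits kept the call. The exceptions were Rpl7 on the total count (adjusted p = 0.067) and Rpl4 without CT16 replicate 2 (0.057). In each of the 14 fits without a library, 14 members stayed called. The median phase of the called members was 18.6 h on the total count, and the log2 range of the summed reads over the course was 1.64 in place of 1.24. Leaving the major urinary proteins out, chosen after seeing the data, gave 42 and 64 calls.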
